A study of Mus musculus with 8 samples.

Results

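Kainate receptors are ionotropic glutamate receptors, assembled as tetramers from the subunits encoded by *Grik1* to *Grik5*, and their gating and trafficking are modified by the auxiliary proteins Neto1 and Neto2. The genes examined here are these 7, matched by symbol among the 38553 genes of the deposited table, and all 7 passed the filter on low values that kept 13674 genes (a mean of at least 1 FPKM, a fragment number scaled to exon length and to the fragments mapped in the library). They were measured by RNA-Seq in dorsal and ventral medial entorhinal cortex (MEC) of male C57Bl/6JolaHsd mice aged 8 weeks. The right MEC of 13 mice was cut in a sagittal slice of 400 µm, and tissue was pooled by region within 4 sets of 3 or 4 mice, giving 4 dorsal and 4 ventral libraries whose spread is a spread between pools. Nothing but the region differs between the groups in the labels, and each pool holds every cell type of the dissected tissue.

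For 4 of the 8 libraries, the header of the deposited FPKM column gives a region other than the one used here. The region used here is that of the comparison table, to which the columns were matched by their values: the mean of 4 columns equals its dorsal FPKM within 0.1% for 22590 of 22597 genes, and the mean of the other 4 equals its ventral FPKM for 22639 of 22648. The comparison table does not name its conditions by region. Which of them is dorsal was taken from the study's supplementary data, where the same mean FPKM is headed as dorsal or ventral. Labels alone do not give this assignment, which comes from the values and from those headings. The libraries are called dorsal 1 to 4 and ventral 1 to 4 in column order, where a number is only a name. Cuffdiff's estimated fragments summed to between 10780902 and 15359782 per library. Under the headers' regions limma called 1 gene in all, and *Grik3*, *Grik1*, *Grik2*, *Grik5* and *Neto1* turned direction.

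Of the subunits, GluK1 to GluK3 (*Grik1* to *Grik3*) form working channels on their own, whereas GluK4 and GluK5 (*Grik4*, *Grik5*) have high affinity for kainate and need a partner from the first group. Neto1 and Neto2 are membrane proteins with CUB domains that bind the receptor and slow its currents. In cortex and hippocampus kainate receptors act at postsynaptic sites, on presynaptic terminals and on interneurons, where they tune transmitter release and excitability.

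The transcription start of *Grik3*, picked here because its regions did not overlap, lies in one of the most GC-rich windows of the mouse genome's annotated starts. A link between these windows and the regional differences was not tested. The windows below run from 250 bases before to 50 bases after the RefSeq start, on build GRCm38.p6 and 5′ to 3′ on the gene's strand, and are shown for *Grik3* and for *Grik2*, the most abundant subunit. Capitals mark each match to the GC box letters GGGCGG or their reverse complement. *Grik3* is on the plus strand at chr4:125490446-125490745 and *Grik2* on the minus strand at chr10:49788705-49789004.
Grik3: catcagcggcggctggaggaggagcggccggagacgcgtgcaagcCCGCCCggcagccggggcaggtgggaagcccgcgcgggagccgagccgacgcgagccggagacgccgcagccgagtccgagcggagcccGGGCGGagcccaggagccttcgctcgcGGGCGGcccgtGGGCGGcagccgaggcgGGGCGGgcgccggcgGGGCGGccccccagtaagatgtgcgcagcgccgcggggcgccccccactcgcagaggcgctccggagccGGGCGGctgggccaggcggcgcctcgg
Grik2: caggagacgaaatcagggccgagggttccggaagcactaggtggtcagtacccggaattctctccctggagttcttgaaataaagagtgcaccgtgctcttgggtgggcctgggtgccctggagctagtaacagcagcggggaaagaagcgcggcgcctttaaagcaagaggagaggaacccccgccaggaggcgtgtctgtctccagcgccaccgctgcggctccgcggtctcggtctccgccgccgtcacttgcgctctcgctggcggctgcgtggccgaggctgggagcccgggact
The *Grik3* window holds 7 matches, 82% G or C and 50 CG dinucleotides, more CG than 99.1% of the 32851 windows in the table, while the *Grik2* window holds 0 matches, 64.7% G or C and 26 CG dinucleotides. Among the other genes, the windows of *Grik4* and *Grik5* and 1 of the 2 *Neto2* windows hold 2 matches each, with 70%, 72% and 72% G or C and 42, 10 and 36 CG dinucleotides, and the other *Neto2* window holds 0 matches, 42.7% G or C and 0 CG dinucleotides. At least 1 match stood in 35.7% of all windows. A match of these letters is a description and not a bound site. The table holds windows for 5 of the 7 genes, and *Grik1* and *Neto1* have none.

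The 7 genes spanned a wide range of levels, and their order was the same at its ends in every library. *Neto1* was highest, at 62.5 FPKM ± 6.84 (SD, n = 8 libraries), above 93.8% of the genes tested. *Grik2* followed at 20.7 ± 3.01, and *Grik5* at 17.5 ± 1.21, *Neto2* at 17.3 ± 2.56 and *Grik3* at 12.4 ± 1.90 FPKM (SD, n = 8 each). *Grik1*, at 3.70 ± 0.749, and *Grik4*, at 1.49 ± 0.202 FPKM (SD, n = 8 each), were the lowest, the latter above 8.07% of the genes tested. The lowest *Neto1* value, 53.9 FPKM, lay above the highest *Grik2* value, 24.5, and likewise *Grik3* lay above *Grik1* and *Grik1* above *Grik4* in 8 of 8 libraries without overlap. The middle of the order was not separated: *Grik2* exceeded *Grik5* in 7 of 8 libraries, *Grik5* exceeded *Neto2* in 4 of 8, and *Neto2* exceeded *Grik3* in 7 of 8, each with overlapping ranges. These levels are per exon length, so the order between genes rests on the exon lengths of the gene models. Before that scaling the order of these subunits differed. *Grik3* had 14134 estimated fragments summed over the libraries, against 9865 for *Grik2* and 8382 for *Grik5*.

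**Figure D1:**
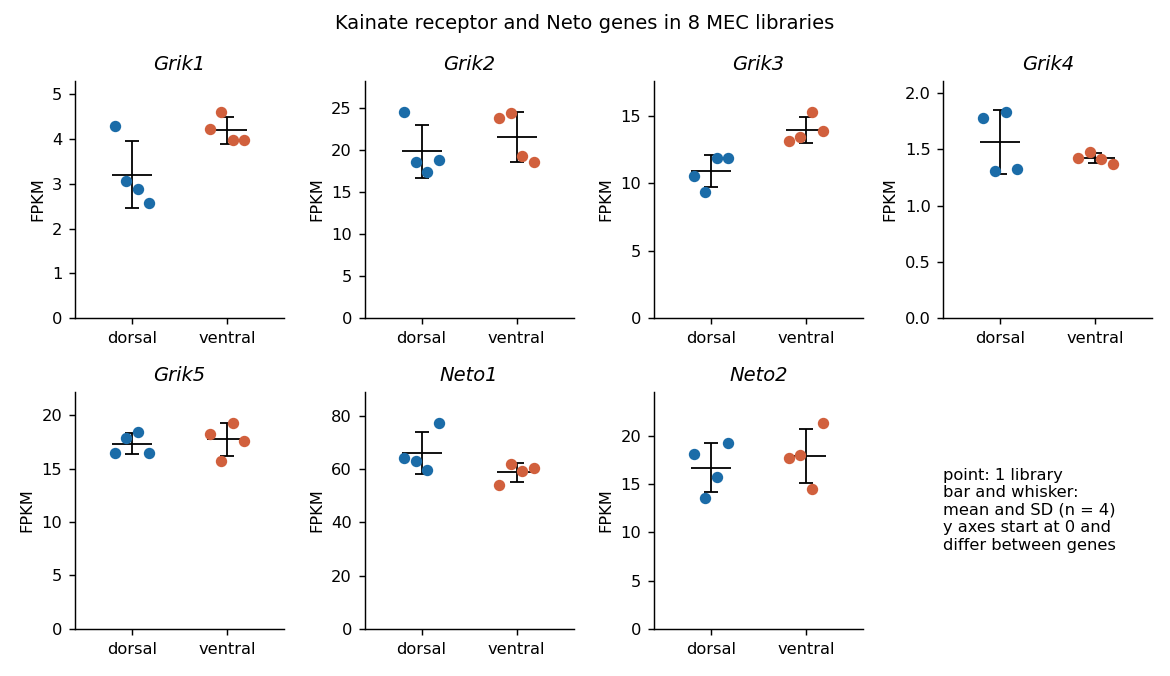
Level of each kainate receptor and Neto gene (y axis, FPKM, starting at 0 and scaled per gene) in the 4 dorsal and 4 ventral libraries (x axis), with a point per library and the mean and SD of each region. In *Grik3* the lowest ventral library, 13.1 FPKM, sits above the highest dorsal library, 11.9 FPKM, while the regions overlap in the other 6 genes.

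Between the regions, *Grik3* and *Grik1* were the genes that differed by more than 20% in mean FPKM, both higher in ventral MEC, and the remaining 5 differed by less. A call required both an adjusted p (Benjamini-Hochberg, over all genes tested) under 0.05 and mean FPKM that differed by more than 20%. By limma on log2(FPKM + 1), 0 of the 7 genes were called in either direction, against 1.45% of all genes tested called as higher in ventral and 2.15% as higher in dorsal MEC. At an unadjusted p under 0.05 limma gave 2 of the 7, *Grik3* and *Grik1*, against 16.0% of all genes. Count-based tests on the estimated fragments called 1 of the 7, *Grik3*, as higher in ventral MEC, where edgeR called 2.97% of genes as higher in ventral and 3.44% as higher in dorsal MEC, and DESeq2 2.97% and 3.57%. A difference beyond 20% was found in 2 of the 7 genes and in 19.8% of all genes, and with 7 genes nothing is read from this count.

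*Grik3* encodes GluK3, a subunit of low glutamate affinity known from presynaptic receptors. Its FPKM was 10.6, 9.38, 11.9 and 11.9 in dorsal 1 to 4 and 13.1, 13.5, 15.3 and 13.9 in ventral 1 to 4. Every ventral library was above every dorsal library, which held for 4.95% of all genes tested and for 1 of the 7 genes here. The means were 10.9 ± 1.19 in dorsal and 13.9 ± 0.960 FPKM in ventral MEC (SD, n = 4 each), a difference of 27.7%. On the log2(FPKM + 1) scale the ventral excess was 0.33 (SE 0.086, 95% interval 0.14 to 0.52, limma adjusted p = 0.0694), just outside the threshold. On the estimated fragments, of which *Grik3* had 1334 to 2339 per library, the log2 difference was 0.36 by edgeR (adjusted p = 0.00863) and 0.36 by DESeq2 (SE 0.086, adjusted p = 0.000918). With each library left out in turn, edgeR called *Grik3* in 8 of 8 fits and limma in 0 of 8. The call thus depended on the tool, whereas the direction did not among fits that used the comparison table's regions. In bulk tissue, more cells that express a gene and more RNA per cell cannot be told apart.

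*Grik1* encodes GluK1, which in cortex is known from interneurons. Its FPKM was 4.29, 3.07, 2.89 and 2.57 in dorsal 1 to 4 and 4.23, 4.61, 3.98 and 3.98 in ventral 1 to 4. Dorsal 1 lay within the ventral range, and the other 3 dorsal libraries lay below every ventral one. The mean was 3.21 ± 0.751 in dorsal and 4.20 ± 0.297 FPKM in ventral MEC (SD, n = 4 each), 31.0% higher in ventral. The difference was 0.32 on the log2(FPKM + 1) scale (SE 0.12, 95% interval 0.053 to 0.59, limma adjusted p = 0.213) and 0.41 by edgeR (adjusted p = 0.0945). Without dorsal 1 it rose to 0.44 by limma (adjusted p = 0.0445) and 0.57 by edgeR (adjusted p = 0.00667), so that this 1 library decided the call. *Grik1* had 95 to 206 estimated fragments per library. The gene model of the files spans 160.0 kb on chromosome 16, against 394.4 kb in GENCODE M21 on the same build, so exons outside that model do not enter its FPKM.

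*Grik2* encodes GluK2, the principal subunit of most kainate receptors in forebrain principal neurons. Its FPKM was 24.5, 18.6, 17.4 and 18.8 in dorsal 1 to 4 and 23.8, 24.4, 19.3 and 18.6 in ventral 1 to 4. The regions overlapped throughout, with dorsal 1 the highest of all 8. The means of 19.8 ± 3.19 in dorsal and 21.5 ± 3.00 FPKM in ventral MEC (SD, n = 4 each) differed by less than the spread between libraries, and the log2(FPKM + 1) difference was 0.12 (95% interval -0.15 to 0.38, limma adjusted p = 0.719). On the estimated fragments the log2 difference was 0.20 by edgeR (adjusted p = 0.318) and 0.20 by DESeq2 (adjusted p = 0.362). The limma interval left room for a ventral excess as large as the 0.33 measured in *Grik3*.

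The subunits that need a partner, *Grik4* and *Grik5*, showed no regional difference that passed a test. *Grik5*, which encodes GluK5, the usual partner of GluK2, was at 16.5, 17.9, 18.5 and 16.5 FPKM in dorsal 1 to 4 and 18.3, 15.7, 19.3 and 17.6 in ventral 1 to 4. Its log2(FPKM + 1) difference of 0.03 had the narrowest interval of the 7 genes, -0.14 to 0.20 (limma adjusted p = 0.901), and its sign changed without ventral 3, to -0.01. *Grik4*, which encodes GluK4 and is known for its enrichment in hippocampal CA3, was at 1.78, 1.31, 1.83 and 1.33 FPKM in dorsal 1 to 4 and 1.42, 1.48, 1.42 and 1.37 in ventral 1 to 4. The ventral libraries lay close together between the 2 low and the 2 high dorsal ones. Its difference was -0.08 on the log2(FPKM + 1) scale (95% interval -0.31 to 0.16, limma adjusted p = 0.797), at 100 to 146 estimated fragments per library.

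The auxiliary genes had opposite signs, neither past a test. *Neto1* encodes a protein that also associates with NMDA receptors, and was at 64.4, 63.2, 59.5 and 77.5 FPKM in dorsal 1 to 4 and 53.9, 62.2, 59.2 and 60.3 in ventral 1 to 4. The regions overlapped, and dorsal 4 was the highest of the 8. The means were 66.2 ± 7.85 in dorsal and 58.9 ± 3.55 FPKM in ventral MEC (SD, n = 4 each), a log2(FPKM + 1) difference of -0.16 (95% interval -0.35 to 0.03, limma adjusted p = 0.414) that was -0.08 without dorsal 4. GENCODE M21 has an antisense gene that shares 219 exon bases with *Neto1*, and since strand is not stated for the counting, its reads cannot be told apart from those of *Neto1*. *Neto2* was at 18.1, 13.6, 15.7 and 19.3 FPKM in dorsal 1 to 4 and 17.7, 17.96, 14.5 and 21.3 in ventral 1 to 4, with full overlap and a difference of 0.10 (95% interval -0.19 to 0.38, limma adjusted p = 0.786). As with *Grik1*, the gene models used for FPKM are shorter than those of GENCODE M21. They span 106.9 against 111.8 kb for *Neto1* and 54.4 against 64.3 kb for *Neto2*.

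**Figure D2:**
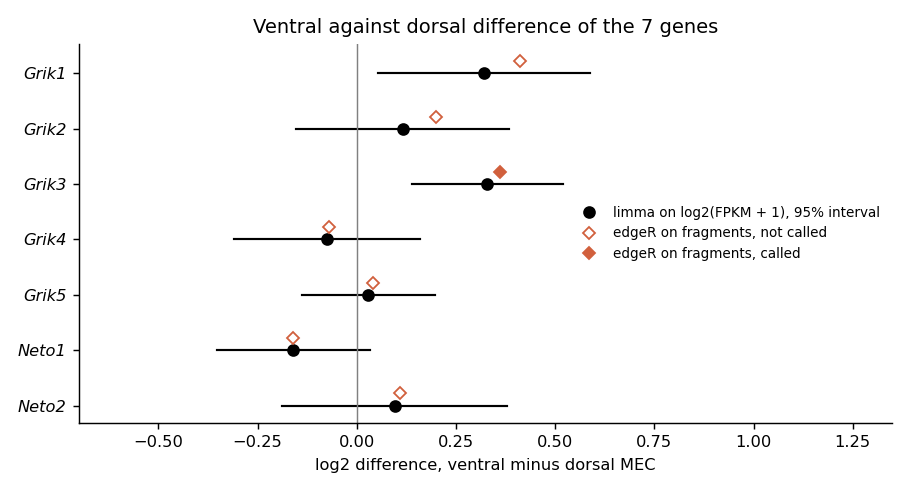
Ventral minus dorsal difference of each gene (x axis, log2) from limma on log2(FPKM + 1) with its 95% interval (black) and from edgeR on estimated fragments (diamonds, filled where called). The intervals of *Grik1* and *Grik3* lie above 0, and *Grik3* is the filled diamond, at 0.36.

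The genes differed in how closely libraries of a region agreed. The SD within a region was taken as a percentage of the mean and combined over dorsal and ventral MEC as a root mean square. This spread was 7.28% for *Grik5*, 9.14% for *Grik3* and 9.41% for *Neto1*, below the median of 11.3% over all genes tested. It was 12.9% for *Grik4*, 15.05% for *Grik2*, 15.4% for *Neto2* and 17.3% for *Grik1*. Counting alone, as the inverse square root of the mean number of estimated fragments, would give 8.73% for *Grik4* and 8.07% for *Grik1*, against 1.72% for *Neto1* and 2.38% for *Grik3*. The combined spread hides that dorsal libraries of *Grik4* and *Grik1* spread more than ventral ones. *Grik4* was at 1.56 ± 0.282 in dorsal and 1.42 ± 0.0451 FPKM in ventral MEC, and *Grik1* at 3.21 ± 0.751 and 4.20 ± 0.297 (SD, n = 4 each).

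As a share of the summed FPKM of *Grik1* to *Grik5*, the make-up of kainate receptor mRNA was led in both regions by *Grik2* and *Grik5*. *Grik2* made up 37.4% ± 3.88 in dorsal and 36.5% ± 4.10 in ventral MEC (SD, n = 4 each), and *Grik5* 32.9% ± 3.25 and 30.2% ± 2.77. *Grik3* made up 20.7% ± 2.57 in dorsal and 23.7% ± 2.01 in ventral MEC, with overlapping ranges of 18.4 to 23.2% and 21.6 to 25.8%. The share of *Grik3* therefore separated the regions less than its level did, since dorsal 3 and dorsal 4 reached the ventral shares. *Grik4* made up 2.60 to 3.50% in the dorsal and 2.34 to 2.48% in the ventral libraries, the 1 share of the 5 whose ranges did not overlap, although its own level overlapped. The near ends, 2.60 and 2.48%, lie close together for a gene whose counting spread alone was 8.73%. A share also falls when the other subunits rise. The summed FPKM of the 5 genes ranged from 50.2 to 57.7 in dorsal and from 55.5 to 60.9 in ventral MEC. *Grik4* and *Grik5* together held 31.7 to 38.7% in dorsal and 28.8 to 34.9% in ventral libraries. These shares are descriptions without a test, and which subunits lead rests on the exon lengths of the gene models.

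**Figure D3:**
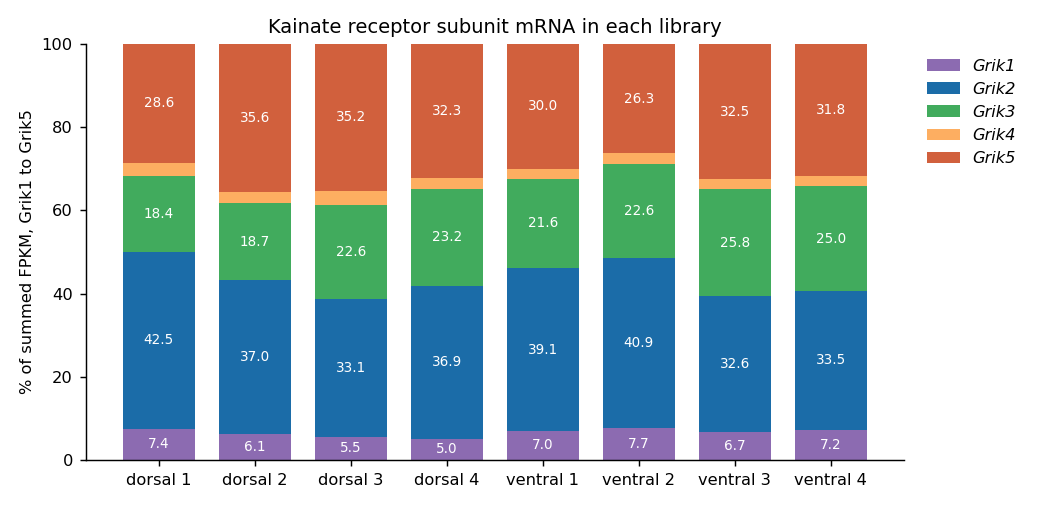
Share of each subunit (y axis, % of the summed FPKM of *Grik1* to *Grik5*) in each of the 8 libraries (x axis), as stacked bars. *Grik2* and *Grik5* are the widest bands in all 8 libraries, and *Grik3* ranges from 18.4 to 25.8%.

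The auxiliary and receptor genes can be set against each other on the same scale, which also rests on the gene models. *Neto1* exceeded *Neto2* in FPKM by 3.55 to 4.66 times in the dorsal and by 2.83 to 4.08 times in the ventral libraries. The sum of *Neto1* and *Neto2* was 1.43 to 1.89 times the sum of the 5 receptor subunits in dorsal and 1.18 to 1.47 times in ventral MEC. Kainate receptor subunits made up 7.88 to 8.75% of the summed FPKM of all AMPA, NMDA and kainate receptor subunits in dorsal and 8.74 to 9.71% in ventral libraries, with ranges that overlap slightly.

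Of 20 genes for proteins that bind, modify, edit or localize kainate receptors, 19 were tested, 0 were called as higher in ventral and 1 as higher in dorsal MEC by limma, and edgeR called the same numbers. The 1 was *Adarb1*, which encodes the deaminase ADAR2 that edits the Q/R site codons of AMPA and kainate receptor transcripts. It was at 27.8 ± 0.652 FPKM in dorsal and 21.8 ± 1.497 in ventral MEC (SD, n = 4 each), -0.34 on the log2(FPKM + 1) scale (SE 0.063, limma adjusted p = 0.0175). Its call was lost without dorsal 1 or without dorsal 2 (highest adjusted p = 0.0551). *Dlg1* and *Dlg4*, which encode the scaffolds SAP97 and PSD-95, were at -0.11 and 0.13, and *Grip1* and *Pick1*, which encode PDZ proteins that bind the receptor's tail, at 0.14 and -0.06, none called by limma. At an unadjusted p under 0.05 limma gave 4 of the 19 as higher in ventral MEC, against 7.31% of all genes tested, and 1 as higher in dorsal MEC. In either direction that was 5 of the 19, against 16.0% of all genes tested. The 4 included *Cdh2*, which encodes N-cadherin, at 45.9 ± 3.16 and 53.1 ± 1.99 FPKM in dorsal and ventral MEC (SD, n = 4 each). They also included *Ctnnb1*, which encodes beta-catenin, at 81.3 ± 3.99 and 96.7 ± 5.30 FPKM (SD, n = 4 each). *Cdh2* and *Ctnnb1* were singled out after their values were seen. Both were under an adjusted p of 0.05 by edgeR (0.0475 and 0.0151), with differences under 20%. The median log2 ratio of mean FPKM, ventral over dorsal, was 0.07 over the 19 genes, 0.10 over the 7 receptor and Neto genes and -0.01 over all genes tested.

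Among 7 genes of glutamate release and uptake, 6 were tested and 1 was called, *Slc17a6*, as higher in dorsal MEC. *Slc17a6* encodes the vesicular glutamate transporter VGLUT2, and was at 10.8 ± 0.255 FPKM in dorsal and 7.21 ± 0.474 in ventral MEC (SD, n = 4 each), -0.52 on the log2(FPKM + 1) scale (SE 0.066, limma adjusted p = 0.00235). It was called in 8 of 8 limma fits with a library left out. *Slc17a7*, which encodes VGLUT1, was at 107 and 105 FPKM and was not called. The glial transporter gene *Slc1a2* and the neuronal transporter gene *Slc1a1* were at -0.10 and -0.24 and were not called by limma. *Slc17a8*, which encodes VGLUT3, missed the filter on low values, at 1.12 to 1.44 FPKM in dorsal and 0.509 to 0.822 in ventral libraries, and with a filter at 0.1 FPKM it was called as higher in dorsal MEC (-0.48, limma adjusted p = 0.0288). The median log2 ratio over the 6 tested genes was -0.17. At an unadjusted p under 0.05 limma gave 3 of the 6 as higher in dorsal and 1 as higher in ventral MEC. In either direction that was 4 of the 6, against 16.0% of all genes tested.

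Of 11 AMPA and NMDA receptor subunit genes, 10 were tested, with a median log2 ratio of 0.02, and limma called 1 in each direction. *Gria1* was higher in ventral MEC, at 48.5 ± 3.47 against 38.7 ± 1.24 FPKM (SD, n = 4 each), 0.32 on the log2(FPKM + 1) scale (SE 0.066, limma adjusted p = 0.0265). *Gria4* was higher in dorsal MEC, at 53.9 ± 2.25 against 43.9 ± 2.80 FPKM (SD, n = 4 each), -0.29 on that scale (SE 0.064, limma adjusted p = 0.0347). In both genes the ranges of the regions did not overlap. The *Gria1* difference of 0.32 was close to that of *Grik3*, 0.33, whose libraries spread more. Both calls were close to the threshold: limma lost that of *Gria1* without any 1 library but ventral 4, and that of *Gria4* without any 1 library but ventral 2, while edgeR with all 8 libraries called both. *Gria2* and *Gria3*, at 0.09 and 0.07, and the other 6 tested genes were not called. At an unadjusted p under 0.05 limma gave 2 of the 10 as higher in dorsal and 1 as higher in ventral MEC. In either direction that was 3 of the 10, against 16.0% of all genes tested.

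**Figure D4:**
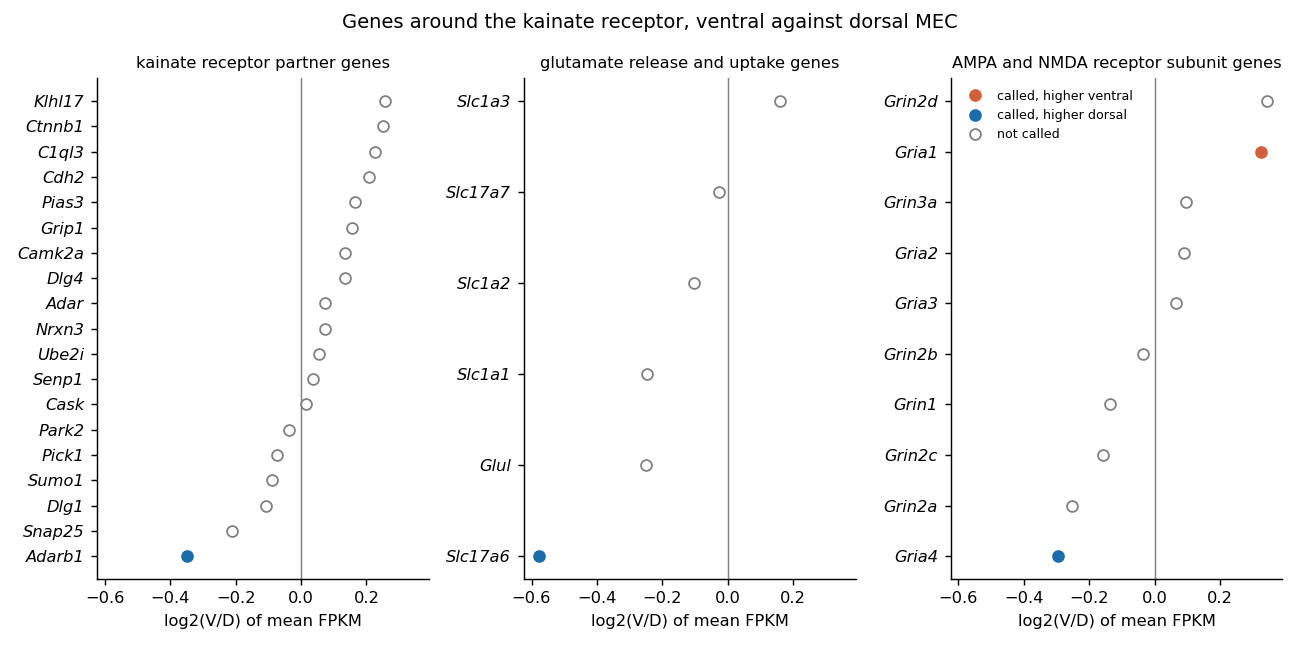
Log2 ratio of ventral to dorsal mean FPKM (x axis) for each tested gene (y axis) of the 3 lists, filled where called by limma. *Slc17a6*, *Adarb1* and *Gria4* are called as higher in dorsal MEC and *Gria1* as higher in ventral MEC, and the other points are open.

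Cell type markers moved between the regions too. All 4 oligodendrocyte genes were called as higher in dorsal MEC, with a summed FPKM of 510.0 to 690 in dorsal and 278 to 367 in ventral libraries. Among 9 genes of GABAergic neurons, *Sst* (log2(FPKM + 1) difference 1.02, limma adjusted p = 0.0147) was called as higher in ventral MEC, a call lost without dorsal 2. *Pvalb* (-1.13, limma adjusted p = 0.000942) and *Npy* (-0.95, limma adjusted p = 0.00279) were called as higher in dorsal MEC. By edgeR *Lhx6* was also called as higher in ventral MEC (log2 difference 0.44, edgeR adjusted p = 0.0193, limma adjusted p = 0.0903). The list sum was 257 to 332 in dorsal and 327 to 420 in ventral libraries. Its largest part was *Sst*, with means of 109 and 220 FPKM, so the sum does not stand for the class. *Gad1*, *Gad2* and *Slc32a1*, which mark GABAergic neurons at large, were at -0.15, 0.14 and 0.01 and were not called. *Gad1* was at 59.6 to 63.5 FPKM in dorsal and 50.3 to 58.4 in ventral libraries, and *Gad2* at 60.7 to 63.9 and 64.3 to 72.1. At an unadjusted p under 0.05 limma gave 6 of the 9 genes, 3 in each direction, against 16.0% of all genes tested. Of 4 layer II genes *Calb1* was called as higher in ventral and *Wfs1* as higher in dorsal MEC, the former a call lost without any 1 dorsal library or without ventral 4, with sums of 107 to 127 and 90.4 to 105. The leptomeningeal gene *Dcn* was called as higher in ventral MEC, within a list of 4 with sums of 24.1 to 33.1 and 45.7 to 59.9. Most of these sums was *Dcn* itself, with means of 24.3 and 48.4 FPKM. *Ttr* of choroid plexus was listed at 0 in all 4 ventral libraries and at no more than 0.128 FPKM in dorsal ones. The 5 genes of glutamatergic neurons had 0 limma calls, 0 at an unadjusted p under 0.05 and 0 by edgeR, with sums of 576 to 731 in dorsal and 594 to 758 in ventral libraries. Astrocyte, microglial, endothelial and oligodendrocyte precursor lists of 4 genes each also had 0 limma calls. So did the 2 tested genes of 5 listed for dentate gyrus and CA3. The unadjusted limma p was under 0.05 for 2 astrocyte and 2 microglial genes, higher in ventral MEC, and 1 endothelial gene, higher in dorsal MEC. The same held for 2 precursor genes, 1 in each direction, and 1 gene of dentate gyrus and CA3, higher in dorsal MEC. By edgeR the astrocyte gene *Gfap* and the precursor gene *Pdgfra* were called as higher in ventral MEC. The precursor gene *Sox10*, and *Prox1* of dentate gyrus and CA3, were called by edgeR as higher in dorsal MEC. Summed astrocyte markers were 84.0 to 91.03 in dorsal and 95.4 to 100 in ventral libraries, microglial ones 34.5 to 36.5 and 38.6 to 42.3, endothelial ones 12.1 to 16.4 and 8.67 to 13.2, precursor ones 19.4 to 21.7 and 21.0 to 21.8, and those of dentate gyrus and CA3 11.5 to 14.1 and 10.9 to 14.1. Most of the last sums was *Pvrl3* and *Prox1*, with means of 8.06 and 3.98 FPKM over all libraries. *Dsp*, *Lct* and *C1ql2* of that list were at 0.0587, 0.0973 and 0.132 FPKM. The sum thus rests on the 2 tested genes and does not stand for dentate gyrus and CA3. The part of these cell types in the differences of *Grik3*, *Grik1*, *Adarb1*, *Slc17a6*, *Gria1* and *Gria4* was not tested.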

How the data were processed

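The genes and lists here were chosen with earlier results of these data known. Libraries were made from 120 ng of RNA (RNA integrity numbers 7.1 to 8.5). Per the labels and the study's methods, the authors used CASAVA 1.8, TopHat2 2.0.8 and Cuffdiff 2 with Ensembl 73 (GRCm38). The deposited FPKM values are fragments per exon length and mapped fragments, scaled between libraries, and the deposited estimated counts of fragments are unscaled. The authors' own columns of fold changes, p-values and q-values were not used, nor were 2 columns of scaled fragments.

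The test between regions was that of limma 3.58.1 in R 4.3.3, with a trend of variance on mean, applied to log2(FPKM + 1) over genes with a mean FPKM of at least 1 that Cuffdiff marked as testable. Low FPKM genes have understated differences on this scale. Alternatives used edgeR 4.0.16 (quasi-likelihood) and DESeq2 1.42.0 on fragments rounded to whole numbers, other constants, filters and scalings, library quality weights, the headers' regions, the 4 libraries whose header and region are the same, and each library left out. The fitting code was run on simulated data with changes larger than the differences of the 7 genes, so that check gives no error rate at their size. Named genes were the 7, every called list gene and up to 4 more per list. The rule also took the genes most similar to a called member, of which limma gave 0. *Slc17a8*, *Cdh2*, *Ctnnb1*, *Ttr*, *Snap25*, *Lhx6* and some others were named after their values were seen. P-values set the difference between regions against the spread between pools of a region. Spread between the sets of mice is part of that, since the tests were unpaired. Intervals are 95% limma intervals. For the lists, 2 genes are not reported here and enter no count or sum.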

Additional observations from a re-analysis of the deposited data

How the results depend on the processing

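With the comparison table's regions, *Grik1*, *Grik2*, *Grik3*, *Grik4*, *Neto1* and *Neto2* kept their direction in all alternatives, and 0 members were called as higher in dorsal MEC in any. *Grik3* was called at 0.36 by edgeR and 0.36 by DESeq2, which made 1 member called as higher in ventral MEC by each, and limma with other constants, filters, scalings or weights left its adjusted p at 0.0529 to 0.122, while the 4 libraries whose header names the region used gave 0.27 (adjusted p = 0.550). With 1 library left out by limma or, chosen after seeing the data, by edgeR, the log2 difference was 0.26 to 0.40 in *Grik3*, 0.25 to 0.57 in *Grik1*, 0.05 to 0.31 in *Grik2*, -0.13 to -0.01 in *Grik4*, -0.01 to 0.09 in *Grik5*, -0.21 to -0.08 in *Neto1* and 0.01 to 0.19 in *Neto2*, and 0 to 2 members were called as higher in ventral MEC. *Grik5* was -0.01 without ventral 3 by both tools and -0.06 in those 4 libraries.

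Under the headers' regions the log2 difference was -0.10 in *Grik1*, -0.07 in *Grik2*, -0.06 in *Grik3*, -0.09 in *Grik5*, 0.14 in *Neto1*, 0.00 in *Slc17a6*, -0.07 in *Gria1*, 0.09 in *Gria4*, 0.22 in *Pvalb*, 0.23 in *Npy*, -0.06 in *Calb1*, 0.08 in *Wfs1*, 0.10 in *Mbp*, 0.14 in *Mog*, 0.25 in *Mobp* and -0.18 in *Dcn*. These are the members and called list genes that turned direction. *Grik4* (-0.14), *Neto2* (0.11), *Sst* (0.22), *Adarb1* (-0.03) and *Mag* (-0.03) kept theirs. Under those regions and in the 4 libraries alone, 0 partner, 0 release and uptake, 0 AMPA and NMDA and 0 marker genes were called. Rescaling to one total FPKM left 0 partner and 0 AMPA and NMDA genes called. DESeq2 called 2 partner genes, with *Snap25* the second, and 16 markers, against 10 by limma. The filter at 0.1 FPKM and no filter each gave 2 release and uptake genes. Leaving out 1 library gave 0 to 1 partner, 1 to 2 release and uptake and 0 to 1 AMPA and NMDA genes. Over all genes, limma called 492, edgeR 877, DESeq2 894, the headers' regions 1 and the 4 libraries 0, where 2 libraries per region remain, and limma without 1 library called 248 to 532. The cause was not tested. No paired analysis was possible because the sources do not say from which set of mice each library was made. *Grik1* and *Grik4*, with 95 to 206 and 100 to 146 fragments per library, have the least depth.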

Other observations

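*C1ql2*, which encodes a secreted synaptic protein that binds kainate receptors in hippocampal mossy fibres, was too low to be tested, and is among the untested genes of the partner list and of the list for dentate gyrus and CA3. It was at 0.0759, 0.0836, 0 and 0.0372 FPKM in dorsal 1 to 4 and at 0.318, 0.171, 0.249 and 0.123 in ventral 1 to 4. Its paralogue *C1ql3* was at 21.7 ± 2.11 in dorsal and 25.4 ± 2.90 FPKM in ventral MEC (SD, n = 4 each) and was not called (limma adjusted p = 0.296).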
